A study of Mus musculus with 10 samples.

Results

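Arginine-metabolizing enzymes and markers of alternative macrophage activation were followed as a set of 9 genes, chosen by symbol from the 55487 genes of the count tables. The set holds the arginases *Arg1* and *Arg2*, the inducible nitric oxide synthase *Nos2*, the secreted proteins *Chil3* and *Retnla*, and the surface receptors *Mrc1*, *Msr1*, *Clec10a* and *Mgl2*. Their RNA was counted in 10 libraries from mammary glands of 10-wk-old female mice on a BALB/c background, all in diestrus. Every mouse carried *Cebpb* fl/fl, a floxed gene for the transcription factor C/EBPβ. Mice with *Csf1r-iCre* in addition (CebpbΔM, named C/EBPb knockdown in the labels) were compared with Cre-negative mice (WT, named wild type). The macrophage libraries came from cells positively selected for F4/80, with 2 WT (replicates 4 and 5) and 4 CebpbΔM libraries (replicates 4 to 7). The mammary epithelial cell (MEC) libraries came from cells left after depletion of lineage-positive cells, with 2 libraries per genotype (replicates 1 and 3). *Csf1r-iCre* acts in CSF1R-expressing myeloid cells in general and not in mammary macrophages alone. The labels do not say whether libraries of a group came from separate mice, so *P*-values measure the spread between libraries.

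Macrophages exposed to the type 2 cytokines IL-4 and IL-13 signal through STAT6 and take on a state called alternative activation, which is associated with tissue repair and clearance. Arginase-1 then turns arginine into ornithine and urea, whereas in classical activation inducible nitric oxide synthase uses the same arginine to make nitric oxide. C/EBPβ is a known regulator of several of these genes in macrophages, *Arg1* among them, and STAT6 and C/EBP sites lie close together in the promoter of *Retnla*. In mammary glands, resident macrophages that carry the mannose receptor are part of the normal stroma.

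Among the 9 genes, *Retnla* and *Chil3* had the largest log2 fold changes in macrophages in either direction. *Chil3* was near the detection limit and passed the filter on low counts through the WT libraries alone, which fixed its direction. Its value is no support for a decrease, so these promoters do not compare a raised with a lowered gene. They are shown because *Retnla* held all 3 searched motifs, with the STAT6 and C/EBP matches next to each other. Promoter sequences were from RefSeq (GRCm38.p6), which gave them for 4 of the 9 genes, with 250 bases before and 50 bases from the annotated start. Capitals mark matches, on either strand, to the C/EBP motif TTNNGCAA (TTGCNNAA on the other strand), to the STAT6 motif (TTC and GAA with any 4 bases between them), and to TATAAA. The sequences are written 5′ to 3′ on the strand of the gene.
*Retnla*, chr16:48842359-48842658, plus strand: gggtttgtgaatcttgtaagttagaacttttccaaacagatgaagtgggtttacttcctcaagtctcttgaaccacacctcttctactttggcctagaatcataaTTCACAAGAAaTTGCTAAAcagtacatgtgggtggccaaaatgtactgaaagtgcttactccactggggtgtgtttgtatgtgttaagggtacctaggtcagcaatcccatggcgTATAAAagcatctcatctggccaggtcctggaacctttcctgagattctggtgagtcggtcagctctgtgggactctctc
*Chil3*, chr3:106167515-106167814, minus strand: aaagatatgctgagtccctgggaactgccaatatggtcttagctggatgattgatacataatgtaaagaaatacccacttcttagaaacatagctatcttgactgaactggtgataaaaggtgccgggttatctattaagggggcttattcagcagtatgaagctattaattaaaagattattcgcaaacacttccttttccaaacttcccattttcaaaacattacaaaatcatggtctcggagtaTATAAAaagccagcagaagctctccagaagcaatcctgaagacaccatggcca

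In *Retnla* the STAT6 match began 145 bases before the start and the C/EBP match began 134 bases before it, with a single base between them, and TATAAA began 30 bases before the start. *Chil3* held TATAAA, which began 3 bases before its annotated start, and no match to the other motifs. The windows of *Mrc1* and *Mgl2* held none of the 3. Over 32851 promoters of this length, 10.8% held the C/EBP motif, 6.95% the STAT6 motif and 13.6% TATAAA. These are matches of letters only and were not tested as binding sites.

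On GRCm38, *Arg1* (ENSMUSG00000019987) lies at chr10:24915221-24927484 on the minus strand and *Arg2* (ENSMUSG00000021125) at chr12:79130777-79156301 on the plus strand. *Nos2* (ENSMUSG00000020826) lies at chr11:78920787-78960254 on the plus strand. *Chil3* (ENSMUSG00000040809) lies at chr3:106147554-106167564 on the minus strand and *Retnla* (ENSMUSG00000061100) at chr16:48842551-48844461 on the plus strand. *Mrc1* (ENSMUSG00000026712) lies at chr2:14229392-14332057 on the plus strand and *Msr1* (ENSMUSG00000025044) at chr8:39581685-39642673 on the minus strand. The lectin genes *Mgl2* (ENSMUSG00000040950, chr11:70130329-70137550) and *Clec10a* (ENSMUSG00000000318, chr11:70156197-70170834) are neighbours on the plus strand. Counts covered the exons of each gene.

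Sequence shared between genes limits the lectin and chitinase-like values. Of the 50-base windows of the longest coding transcript, 10.6% in *Clec10a* and 16.5% in *Mgl2* occurred in a transcript of another gene, each including the other lectin, and 29.4% in *Chil3* occurred in *Chil4* or *Gm6522*. Counting required a mapping quality of at least 10, so read pairs from such stretches may be missing from these counts. The other 6 genes shared no window. *Arg2* shares 116 of its 1428 exon bases with *Gm48780* and 285 with *Vti1b*, both on the opposite strand. *Gm48780* had between 16.8% and 28.1% of the *Arg2* count in every library, and strand-specific counting was set although the library kit's handling of strand is not given in the sources used here, so reads from the pair cannot be told apart with certainty.

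Macrophage libraries held 16935000 to 20174722 counts in all and MEC libraries 25310926 to 27008166. *Cebpb* itself did not separate the genotypes: it had 13 and 15 counts in the libraries labelled WT and 16, 13, 5 and 4 in those labelled CebpbΔM (replicates 4 to 7), too few to check the labels. In MECs *Cebpb* had 25 and 28 counts in WT and 69 and 42 in CebpbΔM. All 12 macrophage markers had counts in every macrophage library, and each had a positive log2 fold change (median 0.60, against 0.00 over all genes tested). The summed level of these markers was 8212 and 9051 CPM (counts scaled to a common library size with the trimmed mean of M-values, TMM) in WT and 10488 to 15610 CPM in CebpbΔM. The 13 epithelial markers summed to 10024 and 10219 CPM in WT and 5716 to 7809 CPM in CebpbΔM macrophage libraries, the 5 fibroblast markers to 4815 and 5398 CPM and to 2448 to 5092 CPM, the 7 dendritic cell markers to 187 and 280 CPM and to 305 to 615 CPM, and the 7 T cell markers to 6.39 and 11.6 CPM and to 12.6 to 23.6 CPM. The epithelial marker *Csn2*, the milk protein β-casein, had 4685 and 344 counts in CebpbΔM macrophage replicates 4 and 5 and at most 10 in the other macrophage libraries. The macrophage, epithelial, dendritic cell and T cell sums did not overlap between the genotypes. The epithelial markers did not move together, as 6 of 12 tested were higher in CebpbΔM and 6 lower. Their mean log2 level overlapped, at 7.12 and 6.55 in WT and 6.13 to 8.09 in CebpbΔM. Only *Siglech* and *Cd209a* of the 7 dendritic cell markers, and *Cd4* of 3 T cell markers tested, had groups without overlap. The part of these cell types in the results was not tested, apart from the scaling to macrophage markers. In such bulk RNA, fewer cells of a type and less RNA per cell cannot be told apart.

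In macrophages the gene with the clearest genotype difference was *Retnla*, which encodes the secreted resistin-like molecule RELMα. Its level was 1120 and 1016 CPM in WT replicates 4 and 5, and 2365, 2585, 3577 and 5604 CPM in CebpbΔM replicates 4 to 7. Every CebpbΔM library was above both WT libraries. This was a 3.31-fold difference, or a log2 fold change of 1.73 ± 0.36 (SE), with an unadjusted *P* of 0.000933 and an adjusted *P* of 0.417 by edgeR's quasi-likelihood (QL) test. That test adjusted *P* over 17772 genes and called none of them (0%), although *Retnla* stood 29th in order of *P*. With the likelihood ratio test of edgeR the adjusted *P* of *Retnla* was 0.00367 (138 genes called, 0.777%), and with DESeq2 it was 0.0003 (201 genes called, 1.13%). Left-out libraries moved the log2 fold change between 1.41, without CebpbΔM replicate 7, and 1.88, without CebpbΔM replicate 4. With replicates 4 and 5 of either genotype only, it was 1.22 (QL adjusted *P* = 0.119).

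The abundance of *Retnla* stood out among all genes. Per kilobase of exon, its mean level was the 15th highest in WT macrophages, at 1783 ± 123 CPM per kb (SD, n = 2), and the 3rd highest in CebpbΔM macrophages, at 5898 ± 2468 CPM per kb (SD, n = 4). It took 0.101% and 0.116% of all counts in the WT libraries and between 0.248% and 0.535% in the CebpbΔM libraries. Against the summed count of the 12 macrophage markers it amounted to 13.6% and 11.2% in WT, and to 22.5%, 20.4%, 25.7% and 35.9% in CebpbΔM. These ranges did not overlap either, and the ratio of the means was 2.1.

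**Figure D1:**
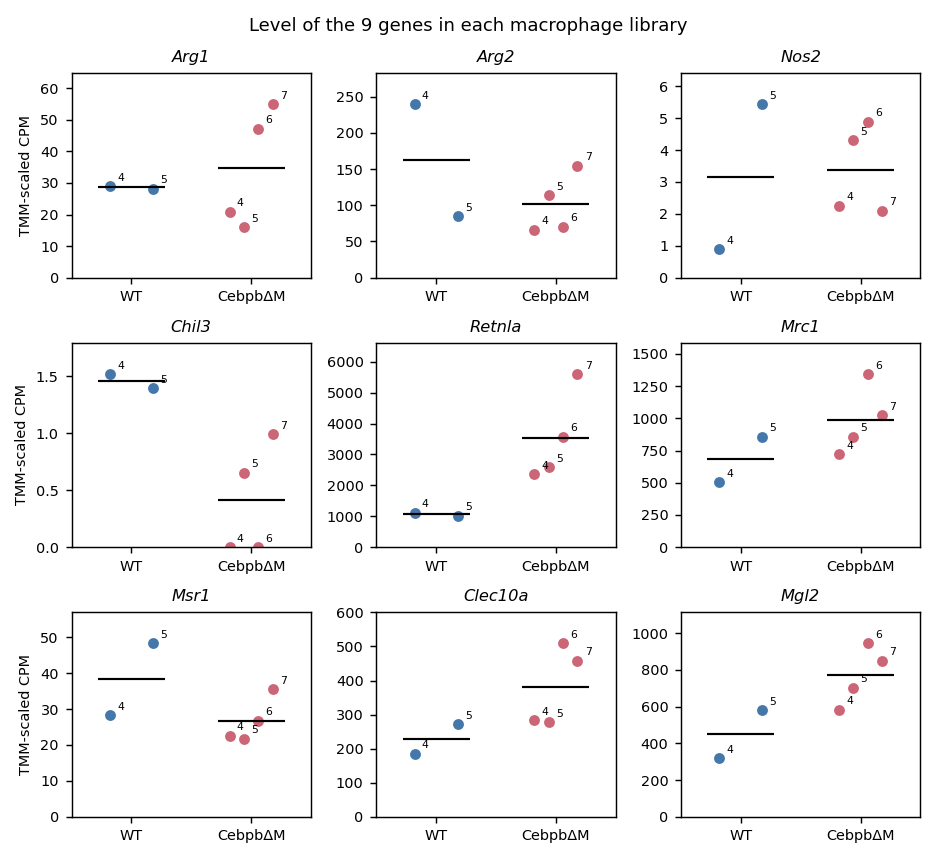
Level of each of the 9 genes in the 6 macrophage libraries, in TMM-scaled CPM on linear axes that start at 0. Points are libraries numbered by replicate and bars are group means. The groups do not overlap for *Chil3*, *Retnla*, *Clec10a* and *Mgl2*, as was the case for 18.7% of all 17772 genes tested. *Chil3* is near the detection limit and its direction was fixed by the filter on low counts. For *Retnla* the CebpbΔM libraries lie between 2365 and 5604 CPM against 1016 and 1120 CPM in WT.

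The other secreted protein, *Chil3* (the chitinase-like protein Ym1), was near the detection limit. It had 29 and 28 counts in WT macrophages, and 0, 13, 0 and 16 counts in CebpbΔM replicates 4 to 7, or 1.52 and 1.39 CPM against 0 to 0.99 CPM. The groups did not overlap and ran opposite to *Retnla*. Their log2 fold change was -1.86 ± 0.96 (SE, QL adjusted *P* = 0.557). A count of 0, as in CebpbΔM replicates 4 and 6, allows up to 3 counts (counting error only). *Chil3* passed the filter on low counts through the WT libraries alone, so a difference in that direction is no support. Its close relative *Chil4* had no counts in any of the 10 libraries.

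The galactose-type lectins *Mgl2* and *Clec10a*, which bind terminal galactose and N-acetylgalactosamine and mark dermal and stromal macrophages and some dendritic cells, varied together. *Mgl2* was at 319 and 581 CPM in WT and at 584, 703, 944 and 850 CPM in CebpbΔM. *Clec10a* was at 185 and 272 CPM in WT and at 284, 278, 509 and 458 CPM in CebpbΔM. For either gene the groups did not overlap, but the gap was small, as WT replicate 5 lay just under the lowest CebpbΔM library. The log2 fold change was 0.78 ± 0.28 for *Mgl2* (SE, unadjusted *P* = 0.0217, QL adjusted *P* = 0.447) and 0.74 ± 0.30 for *Clec10a* (SE, unadjusted *P* = 0.0351, QL adjusted *P* = 0.486). Without WT replicate 4 these values were 0.41 and 0.49, and without WT replicate 5 they were 1.27 and 1.05. With replicates 4 and 5 of either genotype only, they were 0.53 and 0.31.

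The mannose receptor *Mrc1* (CD206), an endocytic receptor for mannosylated glycoproteins, had overlapping groups. Its level was 506 and 857 CPM in WT and 720, 856, 1344 and 1024 CPM in CebpbΔM. WT replicate 5 reached the level of CebpbΔM replicate 5. *Mrc1* had a log2 fold change of 0.53 ± 0.29 (SE, QL adjusted *P* = 0.589), which was 0.20 without WT replicate 4 and 0.22 with replicates 4 and 5 only.

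The class A scavenger receptor *Msr1*, which takes up modified lipoproteins and microbial ligands, ran the other way. Its level was 28.2 and 48.3 CPM in WT and 22.6, 21.8, 26.8 and 35.6 CPM in CebpbΔM. CebpbΔM replicate 7 lay between the WT libraries, so the groups overlapped. The log2 fold change was -0.53 ± 0.28 (SE, QL adjusted *P* = 0.581), and without WT replicate 5 it was -0.085.

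As a percentage of the summed count of the 12 macrophage markers, *Retnla*, *Msr1* and *Chil3* did not overlap between the genotypes. *Chil3* was near the detection limit and its direction was fixed by the filter. *Lyz2* had the highest count of the 12 markers in every macrophage library (82446 to 126565 counts), so the sum leans on this gene. *Mrc1*, *Mgl2*, *Clec10a*, *Arg1*, *Arg2* and *Nos2* overlapped. The marker sum was itself higher in CebpbΔM, which lowers the percentage of a gene at an unchanged level. The share of all genes without overlap by this measure was not counted. Scaling every library to the geometric mean count of the 12 markers, a different measure from their sum, shifted all genes together. It moved their median log2 fold change to -0.64 and called 2787 of 17772 genes (15.7%) in macrophages. Under this scaling the log2 fold change was 0.16 for *Mgl2*, 0.11 for *Clec10a* and -0.087 for *Mrc1*, with adjusted *P* of 0.575, 0.762 and 0.789. *Retnla* kept a log2 fold change of 1.04 (adjusted *P* = 0.0491), and *Msr1* reached -1.14 (adjusted *P* = 0.0319). Relative to the median of all genes the values were 0.80 for *Mgl2*, 0.75 for *Clec10a*, 0.55 for *Mrc1*, 1.68 for *Retnla* and -0.50 for *Msr1*. They lie close to those with TMM alone by construction, since taking off the median undoes the common shift. As a share of the macrophage-marker count, *Msr1* was 0.344% and 0.533% in WT and 0.172% to 0.228% in CebpbΔM.

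**Figure D2:**
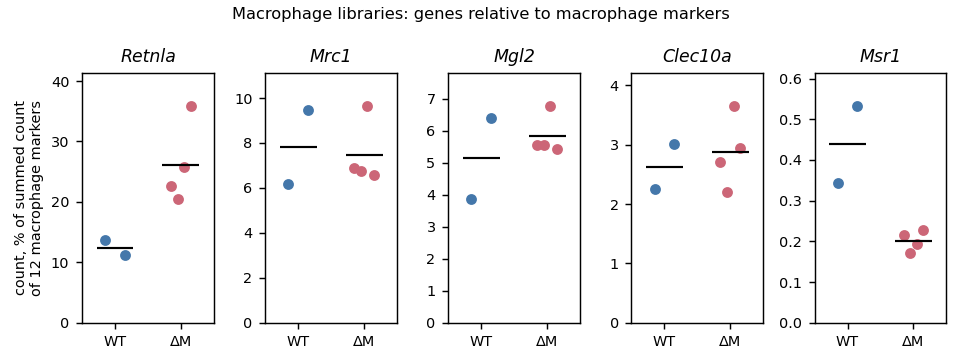
Count of 5 genes as a percentage of the summed count of 12 macrophage markers in each macrophage library, on linear axes that start at 0. Points are libraries and bars are group means. *Retnla* is higher in every CebpbΔM library (20.4% to 35.9%) than in WT (11.2% and 13.6%), *Msr1* is lower in every one, and the other 3 genes overlap.

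The arginases and *Nos2* showed no common direction in macrophages. *Arg1* was at 29.1 and 28.2 CPM in WT, and at 20.9, 16.0, 47.2 and 54.9 CPM in CebpbΔM, so replicates 4 and 5 lay below the WT libraries and replicates 6 and 7 above them. The log2 fold change was 0.27 ± 0.46 (SE, QL adjusted *P* = 0.895). It was -0.62 when replicates 6 and 7 were left out together, which leaves replicates 4 and 5 of either genotype.

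*Arg2*, the mitochondrial arginase, was at 239 and 85.2 CPM in WT and at 66.4, 114, 70.7 and 154 CPM in CebpbΔM macrophages. The WT libraries enclosed 2 of the CebpbΔM libraries. The log2 fold change of -0.68 ± 0.43 (SE, QL adjusted *P* = 0.647) rested on WT replicate 4, without which it was 0.25. *Nos2* was low, with 17 and 109 counts in WT and 43, 86, 88 and 34 counts in CebpbΔM, and the WT libraries enclosed all CebpbΔM libraries. Its log2 fold change was 0.09 ± 0.65 (SE, QL adjusted *P* = 0.979).

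Across the 9 genes, 0 passed the QL test in macrophages, 3 had an unadjusted *P* under 0.05 (*Retnla*, *Mgl2* and *Clec10a*), and the likelihood ratio test and DESeq2 each called 1, *Retnla*. Of all genes tested, 9.76% had an unadjusted *P* under 0.05. The groups did not overlap for 4 of the 9, with 3 higher in CebpbΔM and 1 lower (*Chil3*, whose direction the filter fixed), against 18.7% of all genes (9.67% higher and 9.08% lower). The median log2 fold change of the 9 was 0.27, and 6 were positive.

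**Figure D3:**
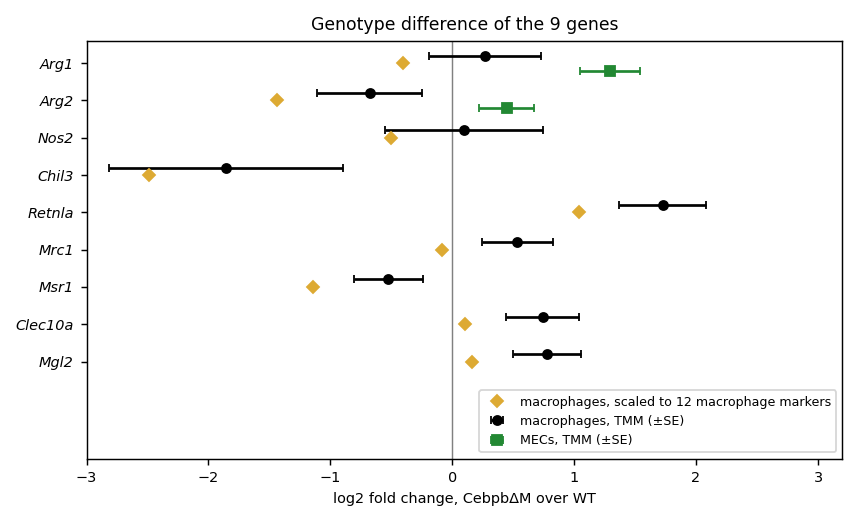
Log2 fold change of CebpbΔM over WT for the 9 genes. Black circles are macrophage libraries with TMM scaling and green squares are MECs, both with standard errors, and yellow diamonds are macrophage libraries scaled to 12 macrophage markers. Scaling to markers moves every macrophage value to the left, from 1.73 to 1.04 for *Retnla* and from 0.53 to -0.087 for *Mrc1*.

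Only *Arg1* and *Arg2* could be tested in MECs, and *Arg1* had the smaller *P*. The *Arg1* level was 25.4 and 33.0 CPM in WT replicates 1 and 3 and 82.6 and 60.5 CPM in CebpbΔM replicates 1 and 3, so the groups did not overlap. The difference was 2.45-fold, or 1.29 ± 0.24 (SE) on the log2 scale, with an unadjusted *P* of 0.000225 and a QL adjusted *P* of 0.0884 over 15698 genes, which missed the threshold of 0.05. *Arg1* stood 40th in order of *P*. The adjusted *P* was 0.000729 with the likelihood ratio test (179 genes called, 1.14%) and 0.00085 with DESeq2 (161 genes called, 1.03%). Without CebpbΔM replicate 3 the QL test called it, at a log2 fold change of 1.5 and an adjusted *P* of 0.00172, as 1 of 354 called among 15318 genes, and in this fit the lone CebpbΔM library was assumed to vary like the WT libraries.

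*Arg2* was at 152 and 133 CPM in WT MECs and at 225 and 163 CPM in CebpbΔM MECs. The groups did not overlap, but the log2 fold change of 0.44 ± 0.22 (SE) had a QL adjusted *P* of 0.9996. Per kilobase, the ratio of *Arg1* to *Arg2* was 0.107 and 0.159 in WT MECs and 0.236 and 0.238 in CebpbΔM MECs, so *Arg2* was the more abundant arginase RNA in each MEC library. In macrophages the same ratio was 0.0778 and 0.212 in WT and 0.0897 to 0.428 in CebpbΔM, with overlap.

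The QL test called 0 of the 2 genes tested in MECs, against 8 of all 15698 genes (0.051%), and 1 of the 2 had an unadjusted *P* under 0.05, against 5.54% of all genes. Non-overlapping groups, seen for both arginases, occurred for 28.7% of all MEC genes (15.4% higher in CebpbΔM). The other 7 genes were below the filter. The highest count of any of these in a MEC library was 24, for *Nos2*, which had 22 and 24 counts in WT and 9 and 0 counts in CebpbΔM. *Chil3* had no counts, and *Retnla*, *Mrc1*, *Msr1*, *Clec10a* and *Mgl2* had between 0 and 10. The 12 macrophage markers summed to 32.6 to 43.2 CPM in MEC libraries, against 8212 CPM or more in macrophage libraries. The 5 fibroblast markers summed to 4200 to 5020 CPM in MEC libraries. The 3 erythroid markers summed to 25.8 and 29.8 CPM in WT and to 126 and 54.9 CPM in CebpbΔM MECs. The 7 dendritic cell markers summed to 2.70 and 3.30 CPM and to 4.84 and 5.84 CPM, whereas the epithelial sums overlapped. The part of these cell types in the *Arg1* difference was not tested.

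An interaction term in a joint fit of the 10 libraries compared the genotype difference between macrophages and MECs. It is given for *Arg1*, *Arg2* and *Nos2*, since the other 6 genes had at most 10 counts in a MEC library. The genotype log2 fold change in macrophages minus that in MECs was -0.98 ± 0.62 for *Arg1*, -1.08 ± 0.60 for *Arg2* and 2.46 ± 1.56 for *Nos2* (SE, QL adjusted *P* of 0.971, 0.968 and 0.971). The QL test called 0 of 18323 genes (0%), none of the 3 had an unadjusted *P* under 0.05 (5.25% of all genes had), and the likelihood ratio test and DESeq2 called none of the 3. A difference between the cell types was thus not shown for *Arg1*, although its log2 fold change was 1.29 in MECs and 0.27 in macrophages.

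Between cell types, the receptors and *Retnla* were nearly absent from MEC libraries of either genotype, whereas both arginases were measured at 16.0 CPM or more in every library. The 13 epithelial markers summed to 31100 to 38176 CPM in MEC libraries and to 5716 to 10219 CPM in macrophage libraries. How much of the arginase RNA in macrophage libraries came from epithelial cells was not tested. Macrophage and MEC libraries were selected in different ways and share no replicate numbers, so cell type and isolation cannot be told apart. Ratios compare the counts summed over a group's libraries, each relative to the group's total count, with exact binomial 95% intervals that cover counting error only.

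In WT, the macrophage level was 14233-fold the MEC level for *Retnla* (95% interval 5558 to 52239, 4 counts in MECs), 9152-fold for *Mrc1* (3574 to 33591, 4 counts) and 8062-fold for *Mgl2* (2758 to 39095, 3 counts). For *Clec10a* the single MEC count gave a ratio of 12267 with an interval of 2201 to 484567. Against a floor of 3 counts over the WT MEC group, *Msr1* was at least 685-fold higher and *Chil3* at least 25.9-fold higher in macrophages (the exact 2-sided intervals start at 556 and 20.4). The QL test over 18323 genes called these 6 as higher in macrophages, but all of them passed the filter on low counts through the macrophage libraries alone, which fixed the direction, so the calls are no support beyond the counts. That of *Chil3* (adjusted *P* = 0.024) was lost without either WT MEC library (adjusted *P* of 0.105 and 0.109). Of all genes, 28.1% were called between the WT cell types, 16% as higher and 12.1% as lower in macrophages.

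In CebpbΔM, *Retnla* was 35577-fold (15245 to 109571), *Mgl2* 7904-fold (3387 to 24343), *Clec10a* 6487-fold (2219 to 31458), *Mrc1* 2663-fold (1705 to 4423) and *Msr1* 680-fold (188 to 5615) the MEC level, and *Chil3* was at least 6.83-fold higher (the exact 2-sided interval starts at 5.21). The first 5 were called and *Chil3* was not (adjusted *P* = 0.131), again with a filter passed through the macrophage libraries alone. *Nos2* was called as higher in CebpbΔM macrophages (19.7-fold, 10.2 to 43.6, adjusted *P* = 0.0072) and not in WT (3.73-fold, 2.64 to 5.35, adjusted *P* = 0.144), where it rested on replicate 5. Without CebpbΔM MEC replicate 3, which had 0 counts, the adjusted *P* of *Nos2* in CebpbΔM was 0.0779, and the interaction term for *Nos2* given above missed the threshold. *Nos2* was also under 1 CPM in every MEC library and passed the filter through macrophages. Of all genes, 36.8% were called between the CebpbΔM cell types, 20.5% as higher and 16.3% as lower in macrophages.

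The order of the *Arg1* levels was 71.6 ± 15.6 CPM in CebpbΔM MECs (SD, n = 2), 34.7 ± 19.2 CPM in CebpbΔM macrophages (n = 4), 29.2 ± 5.36 CPM in WT MECs (n = 2) and 28.6 ± 0.61 CPM in WT macrophages (n = 2). The last 3 did not differ beyond their spread. In WT the log2 difference between macrophages and MECs was -0.17 ± 0.48 (SE, QL adjusted *P* = 0.825). In CebpbΔM it was -1.15 ± 0.39 with an adjusted *P* of 0.0366, and *Arg1* was lower in every CebpbΔM macrophage library than in either CebpbΔM MEC library, but leaving out 4 of the 10 libraries in turn, among them either CebpbΔM MEC library, took the adjusted *P* above 0.05 (up to 0.258), as did the older form of the QL test (0.0536) and no filter on low counts (0.0665).

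*Arg2* was in the order 194 ± 43.5 CPM in CebpbΔM MECs (SD, n = 2), 162 ± 109 CPM in WT macrophages (n = 2), 142 ± 13.7 CPM in WT MECs (n = 2) and 101 ± 41.4 CPM in CebpbΔM macrophages (n = 4), and each neighbour in this order overlapped the next. The log2 difference between macrophages and MECs was 0.05 ± 0.46 in WT (SE, QL adjusted *P* = 0.955) and -1.04 ± 0.39 in CebpbΔM (adjusted *P* = 0.053). Every CebpbΔM macrophage library was below both CebpbΔM MEC libraries, and 6 of 16 alternatives called *Arg2* as lower there, among them the likelihood ratio test (adjusted *P* = 0.0337), DESeq2 (0.0262), relative log expression (RLE) scaling (0.0476) and the fits without CebpbΔM macrophage replicate 7 (0.0201) or without either WT macrophage library (both 0.0224). Levels are scaled within each cell type, and the tests between cell types used all 10 libraries in 1 fit.

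**Figure D4:**
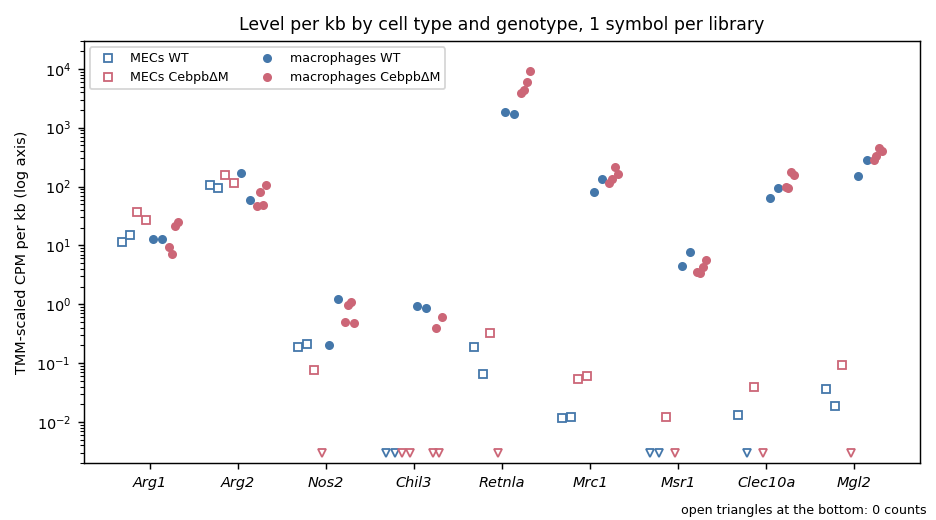
Level per kilobase of exon of the 9 genes in all 10 libraries, on a log axis. Filled circles are macrophage libraries and open squares MEC libraries, blue for WT and red for CebpbΔM, and open triangles at the bottom mark libraries with 0 counts. The arginases lie in the same range in macrophage and MEC libraries, whereas *Retnla*, *Mrc1*, *Clec10a* and *Mgl2* lie at 63.8 CPM per kb or more in macrophage libraries and at 0.321 CPM per kb or less in MEC libraries.

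Within macrophages the levels per kilobase ordered the set. In WT, *Retnla* (1783 CPM per kb) was followed by *Mgl2* (215), *Arg2* (114), *Mrc1* (107) and *Clec10a* (78.9), then by *Arg1* (12.8), *Msr1* (6.03), *Chil3* (0.892) and *Nos2* (0.712). From *Mgl2* to *Clec10a* each neighbour overlapped the next, as did *Chil3* and *Nos2*. In CebpbΔM the order was *Retnla* (5898), *Mgl2* (368), *Mrc1* (155), *Clec10a* (132), *Arg2* (71.1), *Arg1* (15.6), *Msr1* (4.21), *Nos2* (0.763) and *Chil3* (0.251). Here each neighbour from *Mrc1* to *Arg2* overlapped the next, as did *Nos2* and *Chil3*.

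Over the 6 macrophage libraries, log2 CPM of *Mrc1* correlated with that of *Mgl2* (Pearson's r = 0.958) and *Clec10a* (r = 0.943), and *Retnla* with *Clec10a* (r = 0.831) and *Mgl2* (r = 0.795). *Arg2* ran opposite to *Nos2* (r = -0.74) and with *Chil3* (r = 0.752), and *Nos2* ran with *Mrc1* (r = 0.737) and *Mgl2* (r = 0.693). WT replicate 4 had both the highest *Arg2* level (239 CPM) and the lowest *Nos2* level (0.89 CPM). These are descriptions over 6 libraries that share genotype groups and macrophage content. By the same measure, the genes most like each member among all genes tested were *Npc2*, *Ighm* and *Reep5* for *Retnla*, *C4a*, *Maf* and *Arhgef3* for *Mgl2*, *Cklf*, *Rnf144b* and *Gtf2ird2* for *Clec10a*, *Gm16150*, *Serinc3* and *Grin2c* for *Mrc1*, and *Crocc*, *D030028A08Rik* and *Zbtb7b* for *Msr1*. They were *Rab43*, *Zfp81* and *Etfb* for *Arg1*, *Gm48780*, *4930474H06Rik* and *Cacfd1* for *Arg2*, *Gm26648*, *Tbx2* and *Fam193b* for *Nos2*, and *Sh2d5*, *Gpank1* and *Fam76b* for *Chil3*. The correlation of *Retnla* with *Npc2* was 0.991, and that of *Arg2* with *Gm48780*, whose exons overlap its own, was 0.999.

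Related genes were read from 7 lists of pathways and families, in which the QL test called 0 genes between genotypes in either cell type. Among 17 tested of 20 other alternative activation genes, 12 had a positive log2 fold change in macrophages (median 0.43, against 0.00 over all genes), and 6 had an unadjusted *P* under 0.05. Of all genes tested in macrophages, 9.76% had such a *P*. Of the 12 macrophage markers, all were positive (median 0.60) and 7 had such a *P*, so the list did not stand out from these markers. The chemokine *Ccl24* (eotaxin-2) was at 88.5 and 98.6 CPM in WT and at 165 to 324 CPM in CebpbΔM, with no overlap (log2 fold change 1.40 ± 0.27, SE, adjusted *P* = 0.417). *Ccl22*, a ligand of CCR4, had a log2 fold change of 1.17 ± 0.71 with overlapping groups. Among 17 tested of 21 classical activation genes, 14 were positive (median 0.25) and 2 had an unadjusted *P* under 0.05. *Il12b*, a subunit of IL-12 and IL-23, was at 1.41 and 1.44 CPM in WT and at 0 to 1.61 CPM in CebpbΔM, with overlap (log2 fold change -1.60 ± 1.02), and the chemokine *Ccl5* had a log2 fold change of 1.16 ± 0.60 (SE, adjusted *P* = 0.574).

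Genes of arginine and nitric oxide metabolism did not move together in macrophages: 8 of 16 tested were positive (median -0.01) and 1 had an unadjusted *P* under 0.05. That gene was *Ddah1*, which breaks down the nitric oxide synthase inhibitor dimethylarginine, at 16.8 and 20.9 CPM in WT and 5.91 to 12.9 CPM in CebpbΔM (log2 fold change -0.80 ± 0.32, SE, adjusted *P* = 0.486). The cationic amino acid transporter *Slc7a2* had a log2 fold change of -0.65 ± 0.46 with overlapping groups. Of 15 tested genes of IL-4 and IL-13 signalling, 8 were positive (median 0.07). The cytokine *Il4* had 9 and 5 counts in WT and 20 to 33 counts in CebpbΔM (log2 fold change 1.96 ± 0.75, SE, adjusted *P* = 0.466). *Il4* passed the filter on low counts through the CebpbΔM libraries alone, which fixed the direction, so its difference is no support. *Irf4*, a transcription factor downstream of IL-4, was at 15.2 and 10.3 CPM in WT and 19.4 to 30.3 CPM in CebpbΔM (0.89 ± 0.29, adjusted *P* = 0.435).

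Among 18 tested relatives of the receptors, 12 were positive in macrophages (median 0.13) and 4 had an unadjusted *P* under 0.05. The C-type lectin *Cd209d* was at 78.6 and 112 CPM in WT and 145 to 244 CPM in CebpbΔM (log2 fold change 0.94 ± 0.26, SE, adjusted *P* = 0.417), and the endothelial scavenger receptor *Stab2* had a log2 fold change of -1.28 ± 0.52 (adjusted *P* = 0.486). Of the chitinase-like and resistin-like families only 3 of 9 genes were tested. *Chil1*, a chitinase-like protein also made by epithelium, was at 42.8 and 24.1 CPM in WT and 49.1 to 172 CPM in CebpbΔM (1.64 ± 0.50, adjusted *P* = 0.432). *Retn*, which encodes resistin, had a log2 fold change of 0.70 ± 0.88 and passed the filter through CebpbΔM libraries alone. Among 5 tested C/EBP family genes, 4 were positive, and the values of *Cebpd* and *Ddit3* were 0.76 ± 0.39 and 0.36 ± 0.28.

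**Figure D5:**
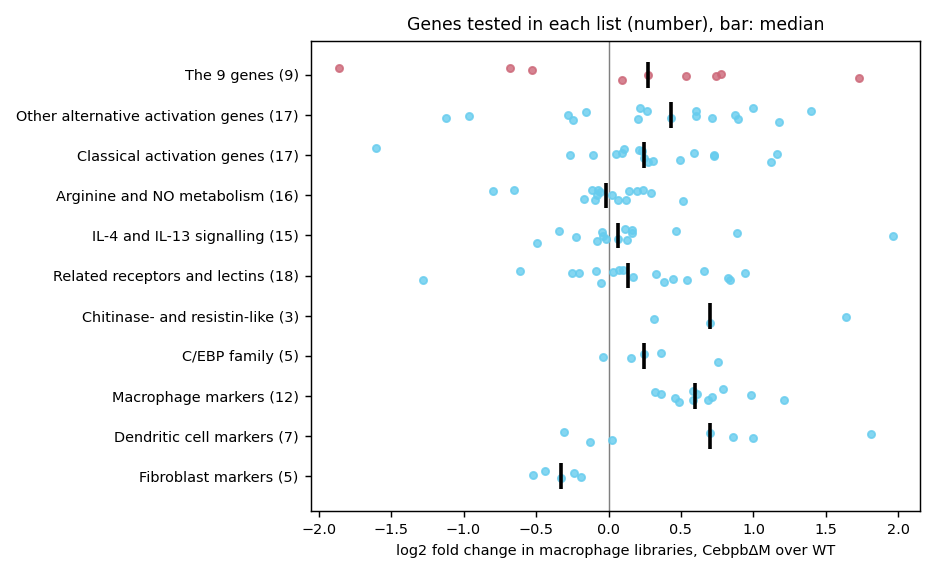
Log2 fold change of CebpbΔM over WT in macrophage libraries for every tested gene of the set and of 10 lists, with the number of genes tested in brackets. Points are genes and bars are medians. The macrophage markers all lie above 0 (median 0.60) and the 5 fibroblast markers all below 0 (median -0.33), and the 9 genes spread on both sides.

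In MECs, 10 other alternative activation genes were tested, of which 1 had a positive log2 fold change (median -0.30, against -0.01 over all genes). The smallest *P* among them was that of *Tgm2*, transglutaminase 2. It was at 4045 and 2782 CPM in WT and 1033 and 1073 CPM in CebpbΔM (log2 fold change -1.70 ± 0.28, SE, adjusted *P* = 0.066). Its log2 fold change in macrophages was -0.96 ± 0.30 (SE, adjusted *P* = 0.435). It was named after its values were seen. *Gch1*, which starts the synthesis of the nitric oxide synthase cofactor tetrahydrobiopterin, had a log2 fold change of 1.17 ± 0.31 in MECs (adjusted *P* = 0.253) and was likewise named after its values were seen.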

How the data were processed

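RNA sequencing counts of 6 macrophage and 4 MEC libraries were analysed. The deposited values are raw counts of read pairs per gene. The authors trimmed reads with Trimmomatic, mapped them with HISAT2 and counted with featureCounts (version 1.6.2, Ensembl release 100, GRCm38, mapping quality at least 10, reverse-stranded). Symbols were from GENCODE M21.

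Genes had to reach 300 nt in exon length and to exceed 1 CPM in 2 or more libraries. CebpbΔM was compared with WT by edgeR (version 4.0.16, R version 4.3.3) with TMM and the QL test, separately for macrophages (17772 genes) and MECs (15698), and over all 10 libraries (18323) for the interaction and between cell types. Benjamini-Hochberg adjustment ran over all genes tested, at 0.05. The study's methods name the likelihood ratio test, an alternative here, as was DESeq2 (version 1.42.0). Further alternatives were the older QL form, RLE scaling, filterByExpr, no filter, a replicate block, replicates 4 and 5 only, macrophage-marker scaling, 1 joint fit, and each library left out. Log2 CPM used a prior count of 2. Tests were checked on simulated data.

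The 9 genes and the lists were chosen with earlier results of these data known. The genes named were the 9, *Cebpb*, list genes that passed the test or had the 2 largest log2 fold changes in macrophages, and the 3 genes most like each of the 9.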

Additional observations from a re-analysis of the deposited data

How the results depend on the processing

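In macrophages, where the QL test called none of the 9 genes, 1 was called with the likelihood ratio test, 1 with DESeq2, 1 with a replicate block and 2 with macrophage-marker scaling, and the log2 fold change of *Retnla* stayed between 1.04 and 1.88 over 16 alternatives. In MECs 1 gene, *Arg1*, was called with the likelihood ratio test, DESeq2 and the replicate block. Leaving out 1 library gave 0 calls in macrophages, 0 to 1 in MECs, 0 for the interaction, 5 to 6 between WT cell types and 5 to 8 between CebpbΔM cell types. The labels do not say whether libraries with the same replicate number belong together. Deviations of same-numbered macrophage libraries from their group means correlated at 0.129 and -0.0865, and those of MECs at 0.106. In a group of 2 libraries such deviations mirror each other, so these values cannot show whether the numbers mark pairs. With the replicate block the log2 fold change was 1.21 for *Retnla* (adjusted *P* = 0.0235), and the block raised the genes called from 0 to 89 in macrophages and from 8 to 229 in MECs. Between cell types no paired analysis was possible because no numbers are shared. Directions turned in macrophages for *Arg1* with the block (-0.64), with replicates 4 and 5 only (-0.62), and with marker scaling (-0.40), and for *Mrc1* (-0.087) and *Nos2* (-0.51) with marker scaling. That scaling put the median of all genes at -0.64, a shift common to all genes. Taking the shift off gave 0.24 for *Arg1*, 0.55 for *Mrc1* and 0.13 for *Nos2*. This returns nearly the TMM values by construction and is no test of direction. With 1 macrophage library left out, the log2 fold change ranged from -0.040 (without CebpbΔM replicate 7) to 0.52 for *Arg1*, from -1.24 to 0.25 (without WT replicate 4) for *Arg2*, and from -0.67 (without WT replicate 4) to 1.93 for *Nos2*, which was also below 0 without CebpbΔM replicate 5 or 6. Between WT cell types it ranged from -0.34 to 0.018 (without WT MEC replicate 3) for *Arg1*, from -0.84 (without WT macrophage replicate 4) to 0.65 for *Arg2*, and from -0.084 (without WT macrophage replicate 5) to 2.51 (without WT macrophage replicate 4) for *Nos2*, whose adjusted *P* was then 0.0226. The cause was not tested. *Chil3* could not be fitted in macrophages without either WT library, since it then fell below the filter. Counts of *Chil3* were at most 29 in any library, so counting error limits its values, and the groups held as few as 2 libraries.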
